A study of Mus musculus with 6 samples.

Results

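The genes described are the histone genes of the mouse whose symbols start with Hist1h, Hist2h or Hist3h, 69 of the 44792 symbols in the count table. They were chosen by symbol, and the set itself was selected on the read counts of Hist1h2al, which had counts in some hearts and none in others. The pattern of Hist1h2al is therefore given as a description, and no test of its counts is used as support. Whole hearts of untreated C57BL/6 mice aged 3 months were compared, 3 from wild type mice and 3 from mice with the cTnI R193H mutation. The cTnI protein, cardiac troponin I, is the part of the troponin complex that holds back contraction between beats. RNA was extracted as total RNA, 1 library was made from each heart, and the design text speaks of biological repeats. The origin of the mutant line, its zygosity and any selection of polyadenylated RNA were not given in the sources used here.

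Replication-dependent histone genes encode the bulk of the linker histone H1 and of the core histones H2A, H2B, H3 and H4, around which DNA is wound. They sit in clusters, have no introns as a rule and are transcribed mainly in S phase, when new DNA has to be packed. Their messenger RNAs usually end in a conserved stem-loop that is bound by the protein SLBP, and not in a poly(A) tail. Adult heart muscle cells rarely divide, and some of these genes are known to give polyadenylated RNA in cells that have left the cell cycle. By class, the members comprised 6 H1, 20 H2A, 19 H2B, 12 H3 and 12 H4 genes. In GENCODE M21 on GRCm38, 56 lay on chromosome 13, 10 on chromosome 3 and 3 on chromosome 11.

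Hist1h2al was the exception to this layout, and it is annotated as a pseudogene. GENCODE M21 places it on the minus strand at chr13:51202727-51203065 as a processed pseudogene of 339 bases, 27.3 Mb from the nearest other member. The other chromosome 13 members lay between 21715763 and 23934851. RefSeq lists the same gene as a transcribed pseudogene named H2af-ps2, with a longer span from 51200084 to 51203066. Only 2 other members, Hist1h2aj and Hist3h2bb-ps, were annotated as pseudogenes in GENCODE. Hist1h2al is thus a member by its symbol and is not annotated as a replication-dependent coding gene.

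The sequence of Hist1h2al is nearly that of Hist2h2aa1, an H2A coding gene on the plus strand of chromosome 3 (GRCm38 96245497 to 96246082). Over the 339 bases of the GENCODE model, the genes differed at 2 positions, an identity of 99.4%. Counted from 1 at the 5′ end of the Hist1h2al model, with the base of Hist2h2aa1 first, these were T120C and G216T. The stretch that holds both is shown because these are the only bases by which a read inside it can be told apart, with the differing bases in capitals. It covers positions 100 to 236 of the model, chr13:51202830-51202966 on the minus strand for Hist1h2al and chr3:96245695-96245831 on the plus strand for Hist2h2aa1, both on GRCm38.
Hist1h2al: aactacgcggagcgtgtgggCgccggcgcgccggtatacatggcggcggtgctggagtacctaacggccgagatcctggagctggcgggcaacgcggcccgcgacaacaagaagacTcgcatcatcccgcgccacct
Hist2h2aa1: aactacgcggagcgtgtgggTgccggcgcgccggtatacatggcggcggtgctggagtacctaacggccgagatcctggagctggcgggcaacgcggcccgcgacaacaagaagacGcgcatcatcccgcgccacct
Hist2h2aa2, an H2A gene in inverted orientation nearby (chr3:96239749-96240276), had the same 2 differences and was identical to Hist2h2aa1 over all 528 aligned bases. Hist2h2ac, a further H2A gene of the chromosome 3 cluster, differed from Hist1h2al at 6 of 339 bases. Hist3h2a, the H2A gene of the chromosome 11 cluster, differed at 52 of the 339.

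Hist1h2al had 243 counts in wild type replicate 2 and 273 in wild type replicate 3. It had 0 counts in wild type replicate 1, 0 in R193H replicates 1 and 2, and 1 count in R193H replicate 3. As CPM, counts scaled to the library total after adjustment by trimmed means of M values (TMM), the levels in wild type replicates 2 and 3 were 14.7 and 13.7. The gene was therefore high in 2 hearts of the wild type group and at or near 0 in the other 4, so the wild type hearts did not share a level. Ratios to a heart at 0 took 3 counts as the most that 0 counts allow and the higher count as exact. Wild type replicate 2 was then at least 69.2-fold above wild type replicate 1 and at least 109-fold above R193H replicate 1. Wild type replicate 3 was at least 64.2-fold higher than wild type replicate 1. Against the single count in R193H replicate 3, the ratio of wild type replicate 2 was 316, with an exact 95% interval of 56.2 to 12544 for counting error only. Wild type replicate 1 had the smallest library, with 14736067 counts.

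The near-identical genes of chromosome 3 were highest in the same hearts. For Hist2h2aa1, wild type replicates 1, 2 and 3 gave 8, 40 and 88 counts, and R193H replicates 1, 2 and 3 gave 14, 16 and 19. Hist2h2aa2 had 15, 35 and 44 counts in the wild type and 25, 30 and 21 in the R193H hearts. For both genes wild type replicates 2 and 3 lay above every other heart, and wild type replicate 1 lay inside or below the R193H range, so the groups overlapped. Summed, they reached 4.55 and 6.61 CPM in wild type replicates 2 and 3, against 1.63 to 2.10 CPM in the other 4 hearts. Of the 50-base windows of the longest GENCODE model, 96.3% for Hist2h2aa1, 100% for Hist2h2aa2 and 67.6% for Hist1h2al also occurred, base for base, in a transcript of a gene elsewhere. How the authors' counting placed reads that match several of these genes is not given in the sources used here, so the 3 counts are uncertain one by one. Their sum was 19.3 and 20.3 CPM in wild type replicates 2 and 3, against 1.63 CPM in wild type replicate 1 and 1.75 to 2.10 CPM in the R193H hearts.

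Hist2h2bb, an H2B gene of the chromosome 3 cluster (chr3:96269752-96270132, plus strand), was singled out after its values were seen. Wild type replicate 2 gave 9 counts and wild type replicate 3 gave 8, while the other 4 hearts gave 0. None of its 50-base windows occurred in a transcript of a gene elsewhere, and its closest match among the other H2B members was Hist1h2bm, at 89.5% identity over 381 bases. Hist1h2al and Hist2h2bb alone in the table had at least 8 counts in both these hearts and at most 1 in each other heart. The limits of 8 and 1 are counts of these genes, and Hist1h2al gave the pair of hearts, so this is description only. With 3 counts set for the 0 of wild type replicate 1, Hist2h2bb was 2.56-fold higher in wild type replicate 2 and 1.88-fold higher in wild type replicate 3. These ratios take the 9 and 8 counts as exact. Counting error in such small counts is left out, so the ratios are not lower limits.

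**Figure D1:**
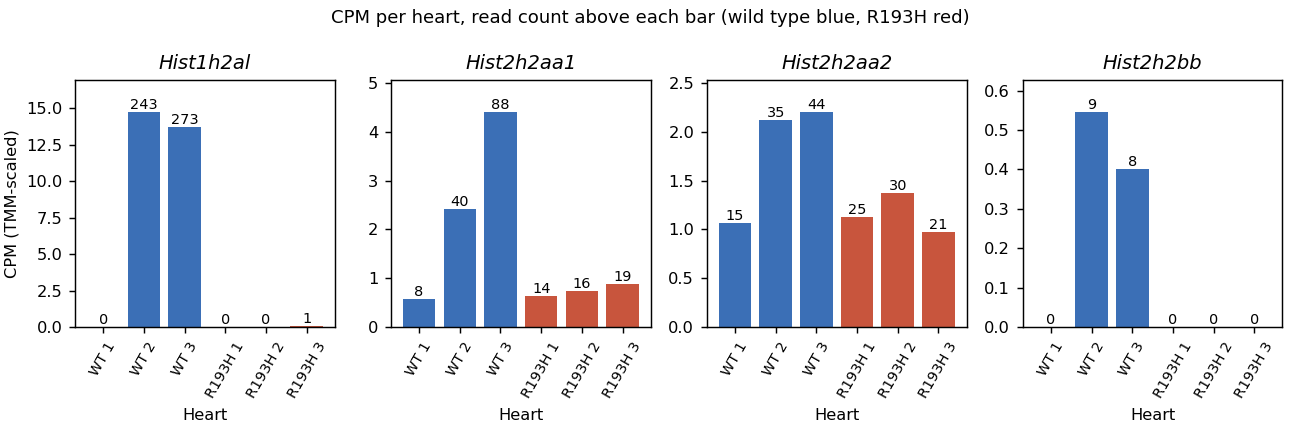
CPM (y axis, a separate scale in each panel) of Hist1h2al, Hist2h2aa1, Hist2h2aa2 and Hist2h2bb in each heart (x axis), with the read count above each bar, wild type in blue and R193H in red. All 4 genes were highest in wild type replicates 2 and 3, and Hist1h2al had 0, 0, 0 and 1 counts in the other hearts.

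The promoters of Hist2h2aa1 and Hist2h2bb, as RefSeq gives them on GRCm38.p6 (250 bases before the gene start to 50 after it), are shown because both genes had their highest counts in the same 2 hearts. Capitals mark matches on either strand to 3 motifs, each searched by itself. These are CCAAT (the CCAAT box), the TATA box letters TATAAA, and the octamer of H2B promoters, ATTTGCAT. The Hist2h2aa1 window is chr3:96245247-96245546 and the Hist2h2bb window chr3:96269450-96269749, both on the plus strand.
Hist2h2aa1: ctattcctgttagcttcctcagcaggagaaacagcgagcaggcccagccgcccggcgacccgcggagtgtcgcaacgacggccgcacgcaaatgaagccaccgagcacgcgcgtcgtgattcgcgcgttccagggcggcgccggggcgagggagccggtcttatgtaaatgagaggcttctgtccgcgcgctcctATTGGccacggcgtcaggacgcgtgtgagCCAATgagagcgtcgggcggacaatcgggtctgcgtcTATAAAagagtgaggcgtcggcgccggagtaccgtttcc
Hist2h2bb: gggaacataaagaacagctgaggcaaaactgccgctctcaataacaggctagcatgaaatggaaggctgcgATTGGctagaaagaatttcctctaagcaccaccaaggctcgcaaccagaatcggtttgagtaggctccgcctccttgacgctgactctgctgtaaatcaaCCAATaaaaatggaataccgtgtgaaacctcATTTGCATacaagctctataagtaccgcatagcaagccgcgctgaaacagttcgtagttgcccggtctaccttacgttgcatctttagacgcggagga
Each window held 2 matches to CCAAT. The Hist2h2aa1 window held 1 match to TATAAA and the Hist2h2bb window 1 match to ATTTGCAT. Over 60 members with a promoter window in the table, 86.7% held CCAAT, 58.3% TATAAA and 21.7% ATTTGCAT, against 37.9%, 14.2% and 1.75% of 27025 gene promoters of the same length. The windows of Hist2h2aa1 and Hist2h2aa2 were 95.8% identical over 260 bases.

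Likeness to Hist1h2al was measured as Pearson's r of log2(CPM + 1) over the 6 hearts, and it is a description that rests on the division of 2 hearts from 4. The most alike gene was Rps3a3, with r = 0.999. It is annotated as a processed pseudogene of a ribosomal protein gene on chromosome 13 (GRCm38 108670603 to 108671397) and is 98.9% identical to the ribosomal protein gene Rps3a1 over 795 bases. Rps3a3 had 751 counts in wild type replicate 2 and 870 in wild type replicate 3, against 59 in wild type replicate 1 and 89 to 102 in the R193H hearts. Its levels in the first 2 were 45.5 and 43.6 CPM, against 4.14 to 4.59 CPM elsewhere. The next 4 genes, Slc25a29, Enpep, Pigm and Pom121, had r from 0.988 to 0.996 with small differences, such as 7.27 and 7.11 CPM for Slc25a29 in the same hearts against 5.62 to 5.76 CPM in the others. Of the members among the 15544 genes compared, which reached at least 10 counts in a heart, Hist2h2aa2 (r = 0.955) and Hist2h2aa1 (r = 0.947) stood closest. Hist2h2bb, with at most 9 counts, was not among the genes compared.

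An on-off pattern was defined as 0 counts in at least 1 heart and at least 10 counts in another. Of the 20 members that reached 10 counts in any heart, 2 met it, Hist1h2al and Hist1h2bh. Among 15525 other genes that reached 10 counts, 1.67% met it, and among 5755 with a summed count between those of Hist1h2bh and Hist1h2al, 3.25% did. Nothing is read from the members' count, since the set was selected on this pattern. Among 10550 other genes with at least 100 counts in a heart, 8 had a heart at 0 (0.0758%). Of 10190 other genes whose counts added up to 500 or more, 2 did (0.0196%). Hist1h2al, on which the set was selected, lies above both limits, so these shares are description and no support for its pattern. Hist1h2bh, a coding H2B gene at chr13:23541714-23543392, had 0, 10 and 2 counts in the wild type hearts and 0, 3 and 10 in the R193H hearts. Its 2 highest hearts were 1 of each genotype, and its counts were near the lower limit of the definition. With at least 20 counts in the high heart, only Hist1h2al remained, and with at least 5 counts, 11 members met the definition.

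Most members gave few or no counts. A total of 12 were at 0 in every heart, 37 had between 1 and 9 counts in their highest heart, and 23 had a count in every heart. Between 14 and 23 of the 57 members with any count were at 0 in a given heart. Genes best known from the male germ line, the H1 gene Hist1h1t, the H2A gene Hist1h2aa and the H2B gene Hist1h2ba, were among the 12 at 0. Other members at 0 were Hist1h2ah, Hist1h2aj, Hist1h2an, Hist1h2ao and Hist1h2ap of H2A and Hist1h2bm of H2B. The rest of the 12 were Hist1h3a and Hist2h3b of H3 and Hist1h4b of H4. Of the 57 members with any count, 59.6% had at least 1 heart at 0, against 30.8% of the 23698 other genes with a count. These shares are not matched for count level, and 37 of the 57 members had at most 9 counts in any heart. The set was also selected on a gene with hearts at 0, so nothing is read from them. Among members with at most 3 counts in any heart, a 0 in 1 heart cannot be told apart from the counts in another by the limit of 3 counts. Of the 50-base windows of Hist1h2ap, Hist1h2ao, Hist1h2aj, Hist1h2ah and Hist1h2an, 85.8% to 93.5% also occurred in transcripts of other genes. For the other members at 0, this share ran from 0% for Hist1h1t and 2.35% for Hist1h2aa to 79.7% for Hist2h3b. Whether the authors' treatment of reads with several matches plays a part in the 0 counts was not tested.

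**Figure D2:**
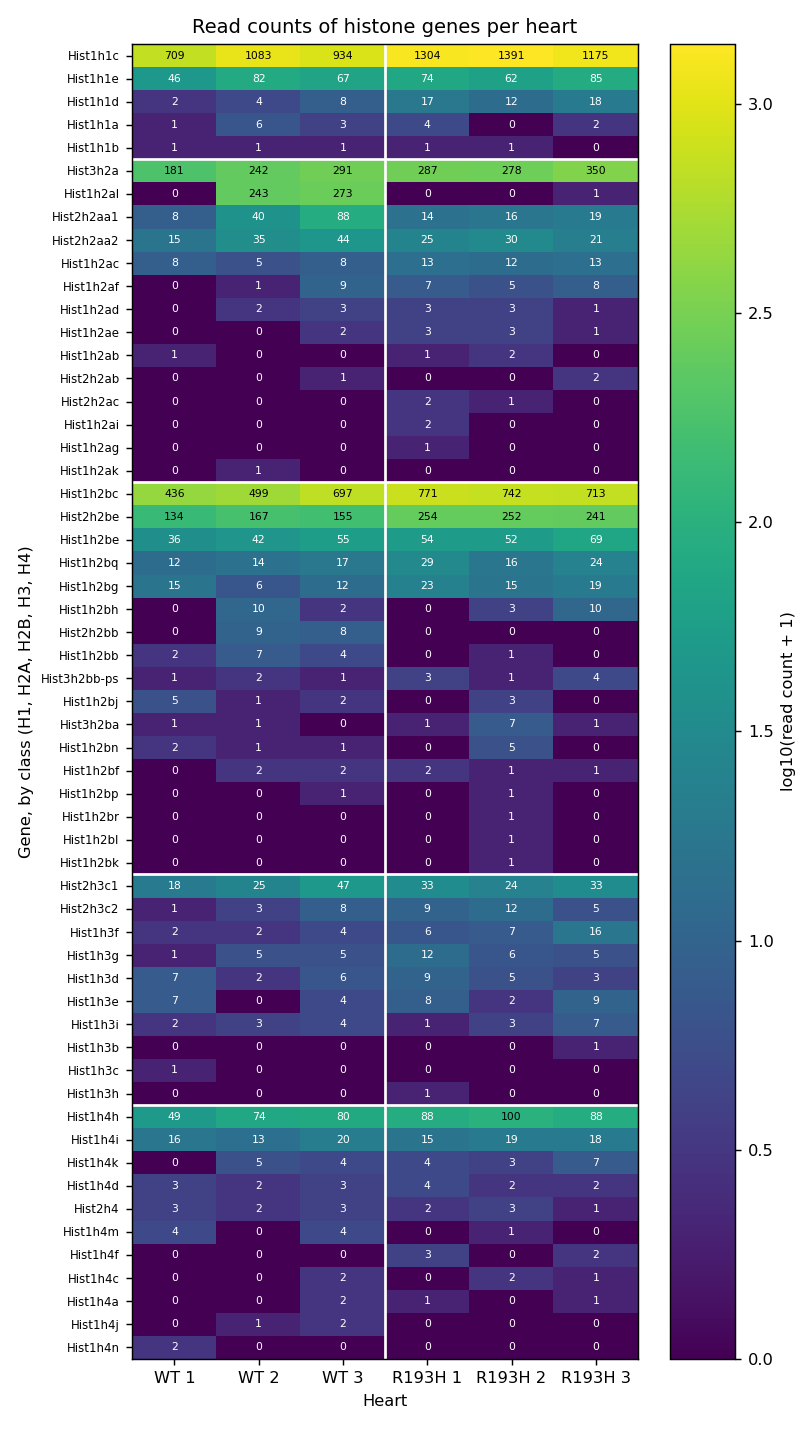
Read counts (number in each cell, color as log10 of the count plus 1) of the 57 histone genes with a count (y axis, by class) in each heart (x axis). A few genes of each class hold most counts, and Hist1h2al stands out at 243 and 273 in wild type replicates 2 and 3 against at most 1 elsewhere.

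The counts were concentrated in a few members. Hist1h1c, which encodes the linker histone H1.2, took 40.1% of all member counts, and Hist1h1c, Hist1h2bc, Hist3h2a and Hist2h2be together took 80.8%. Per kilobase of the longest GENCODE model, mean levels were 36.3 CPM for Hist1h1c, 28.5 for Hist1h2bc, 6.52 for Hist3h2a and 3.92 for Hist2h2be. On the same scale, Hist1h4h stood at 8.72 CPM and Hist1h2al, high in 2 hearts, at 14.0 CPM. These levels rest on the model length. That of Hist1h1c is 1560 bases in GENCODE, and the gene spans 725 bases in RefSeq. For Hist1h2al the model is 339 bases and the RefSeq span 2983, so its place in this order is not settled. Which annotation the authors counted on is not known here. The table holds 10209 symbols that start with LOC, a form that NCBI uses.

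The 3′ stem-loop was searched in the GENCODE transcripts by its 16-base consensus, on the transcribed strand. It was found in a model of 43 of 69 members and in 69 of 141767 transcripts of all genes (0.0487%), of which 45 belonged to members. A missing match says only that the letters are not in that model. The stem-loops of abundant members from 3 clusters are shown with 5 flanking bases on each side and the loop and its stem in capitals, since these letters are what SLBP is known to bind.
Hist1h1c: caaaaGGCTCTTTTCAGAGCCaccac
Hist3h2a: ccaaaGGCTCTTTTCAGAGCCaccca
Hist1h4h: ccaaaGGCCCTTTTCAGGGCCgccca
Hist2h2aa1: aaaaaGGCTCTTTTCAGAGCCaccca
They lie on the plus strand of GRCm38 at chr13:23739507-23739532, chr11:58955167-58955192, chr13:23531453-23531478 and chr3:96246027-96246052. In GENCODE, the model of Hist1h1c runs on for 840 bases after the stem-loop and that of Hist3h2a for 1643, while those of Hist1h4h and Hist2h2aa1 end 46 and 35 bases after it. The 17 members whose model runs on for at least 300 bases held 58.1% of the member counts, with a median summed count of 38.0. The 26 whose model ends sooner held 6.19%, with a median of 3.5. The other 26, with no stem-loop in the model, held 35.7%, with a median of 4.5, and include the abundant Hist1h2bc and Hist2h2be. Longer models also collect more reads, and the division at 300 bases was chosen after the models were seen.

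Of the tested linker histone genes, Hist1h1d was the one whose groups did not overlap. Hist1h1c measured 50.3, 65.6 and 46.8 CPM in wild type replicates 1, 2 and 3 and 58.6, 63.6 and 54.7 CPM in the R193H hearts, and the groups overlapped. Hist1h1e, which encodes H1.4, had 46, 82 and 67 counts in the wild type and 74, 62 and 85 in the R193H hearts, with overlapping CPM. Hist1h1d, which encodes H1.3, had 2, 4 and 8 counts in the wild type and 17, 12 and 18 in the R193H hearts. In CPM these were 0.142, 0.242 and 0.401 against 0.764, 0.549 and 0.838, and every R193H heart lay above every wild type heart. Its log2 fold change was 1.38 (SE 0.49), the highest of any tested member. It missed the threshold in edgeR's quasi-likelihood test (adjusted p = 0.752). Only the R193H hearts, where it was high, carried it past the filter on low counts. Its fold change and lack of overlap are therefore description and no support. Its GENCODE model of 7425 bases is far longer than the 776 bases that RefSeq gives, and where in the model the reads lay is not known here.

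Of the tested H2B genes, Hist2h2be was the one whose groups did not overlap. Hist2h2be, an H2B gene of the chromosome 3 cluster (chr3:96221119-96223738), measured 9.51, 10.1 and 7.76 CPM in the wild type and 11.4, 11.5 and 11.2 CPM in the R193H hearts. Its log2 fold change was 0.32 (SE 0.13), and edgeR's adjusted p was 0.826. Groups without overlap and with R193H higher were found for 6.02% of all genes tested. Hist1h2bc, at 32.0 ± 2.52 CPM in the wild type and 33.9 ± 0.732 CPM in the R193H hearts, and Hist1h2be, at 2.62 ± 0.118 and 2.67 ± 0.468 CPM, overlapped between groups (SD, n = 3 each). Hist1h2bg stood at a log2 fold change of 0.38 (SE 0.44), with 15, 6 and 12 counts against 23, 15 and 19. Hist1h2bb is an untested gene named after its values were seen. It had 2, 7 and 4 counts in the wild type and 0, 1 and 0 in the R193H hearts. These groups did not overlap, with R193H lower, but Hist1h2bb was picked by its values from the 54 untested members. The share of untested genes without overlap is not given here, so nothing is read from it. Summed over all H2B members, the wild type hearts lay between 45.7 and 47.9 CPM and the R193H hearts between 50.4 and 51.1 CPM. Hist1h2bc and Hist2h2be made up most of these sums. How often sums of other genes separate the groups is not given here, so nothing is read from the H2B sums.

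None of the tested H2A genes separated the groups in CPM. Hist3h2a measured 12.8, 14.7 and 14.6 CPM in the wild type and 12.9, 12.7 and 16.3 CPM in the R193H hearts, with a log2 fold change of -0.0075 (SE 0.13). Hist1h2ac had 8, 5 and 8 counts against 13, 12 and 13 (log2 fold change 0.46, SE 0.43). In CPM these were 0.568, 0.303 and 0.401 against 0.585, 0.549 and 0.605, so the groups overlapped. Wild type replicates 2 and 3 lay below the filter on low counts, and Hist1h2ac passed it mainly through the R193H hearts. Its fold change is therefore description and no support. Hist2h2aa1 and Hist2h2aa2 had the lowest log2 fold changes of the tested members, -1.74 (SE 0.62) and -0.65 (SE 0.34), with edgeR adjusted p of 0.781 and 0.879, and both rest on wild type replicates 2 and 3. The H2A members summed to 28.5 ± 11.7 CPM in the wild type and 17.2 ± 1.92 CPM in the R193H hearts (SD, n = 3 each). Without Hist1h2al, Hist2h2aa1 and Hist2h2aa2 the sums were 14.8 ± 1.18 and 15.2 ± 1.94 CPM.

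H3 and H4 genes contributed little. Hist2h3c1, an H3 gene, had 18, 25 and 47 counts in the wild type and 33, 24 and 33 in the R193H hearts (log2 fold change -0.34, SE 0.32). Hist1h3f, an untested H3 gene named after its values were seen, had 2, 2 and 4 counts against 6, 7 and 16. Its groups did not overlap, but it too was picked by its values from the untested members, so nothing is read from it. Hist1h4h had 49, 74 and 80 against 88, 100 and 88 counts (log2 fold change 0.075, SE 0.18). In CPM these were 3.48, 4.49 and 4.01 against 3.96, 4.57 and 4.10, so the groups overlapped. Hist1h4i had 16, 13 and 20 against 15, 19 and 18 counts (log2 fold change -0.29, SE 0.34). The H3 members together reached 3.03 ± 0.776 CPM in the wild type and 3.31 ± 0.533 CPM in the R193H hearts. The H4 members reached 5.78 ± 0.285 and 5.60 ± 0.343 CPM (SD, n = 3 each), and for both classes the groups overlapped.

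Only 15 of 69 members passed the filter on low counts and were tested between genotypes, 3 of H1, 4 of H2A, 5 of H2B, 1 of H3 and 2 of H4. None passed the threshold in edgeR over all 14370 genes tested, of which 0.00696% passed, and Hist1h1d, Hist2h2be and Hist2h2aa1, 3 in all, had an unadjusted p under 0.05 (5.73% of all genes tested). DESeq2 called 0 of the 23 members to which it gave an adjusted p. Of the 57 members with a DESeq2 fit, 4 had an unadjusted p under 0.05, against 740 of all 23755 genes with a count. The 4 were Hist2h2aa1, Hist1h2al, on which the set was selected, and Hist2h2bb and Hist1h2bb, to which DESeq2 gave no adjusted p. Hist1h2al, Hist2h2aa1 and Hist2h2bb were all highest in wild type replicates 2 and 3, so nothing is read from this count of 4. The groups did not overlap for 2 of the 15 with R193H higher (6.02% of all genes tested) and for 0 with R193H lower (5.8%). Hist1h1d is among these 2 and among the 3 above, and it passed the filter only through the R193H hearts. Means were higher in R193H hearts for 9 of the 15 (49.9%). Hist1h2ac, which passed the filter mainly through the R193H hearts, and Hist1h1d are among the 9, so this count is description only. These 15 are the members with enough counts, so their counts and median say nothing of the other 54. The median log2 fold change of the 15 was 0.075, beside -0.00036 over all genes tested. Hist1h2al did not pass the filter, which asks for counts in 3 hearts. It passed when wild type replicate 1 or any single R193H heart was left out, and was past the threshold only without wild type replicate 1. Since the set was selected on its counts, and that heart is the wild type heart at 0, no p of it is printed. Its place among the 4 above is no support.

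**Figure D3:**
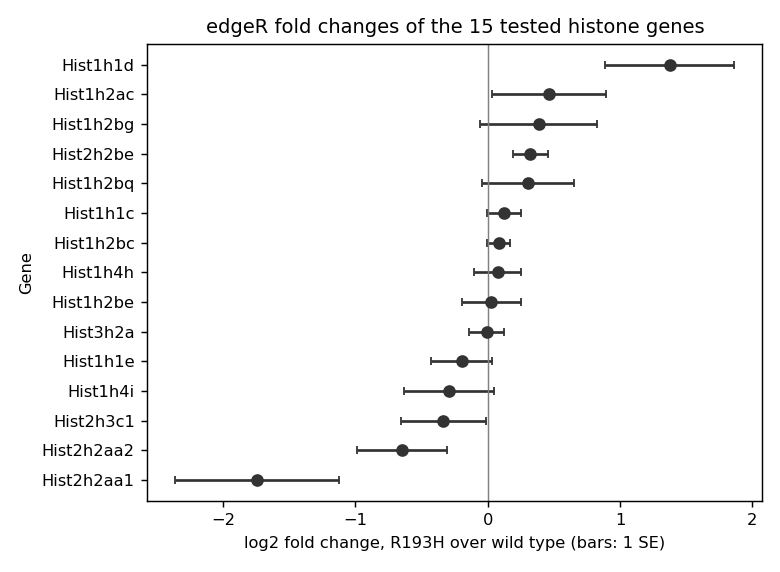
Log2 fold change of R193H over wild type (x axis, points, bars of 1 SE, n = 3 hearts each) for the 15 tested histone genes (y axis). Most genes lie near 0, with Hist1h1d at 1.38 and Hist2h2aa1 at -1.74 at the ends, and none passed the threshold.

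Summed over all members, the wild type hearts measured 123, 160 and 145 CPM and the R193H hearts 139, 142 and 139 CPM. Without Hist1h2al the wild type sums were 123, 145 and 131 CPM, with the R193H sums inside their range. The log2 ratio of the group means was -0.027 with Hist1h2al and 0.072 without it. With Hist1h2al kept, it was also above 0 under library totals (0.10) and without wild type replicate 2 (0.065), so it had no settled sign.

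Genes of DNA replication and mitosis were given beside these sums because histone RNA is best known from S phase. The S phase list (32 genes, such as Pcna and the Mcm helicase subunits) summed to 164 to 183 CPM in the wild type and to 162 to 228 CPM in the R193H hearts, the highest in R193H replicate 2. None of its 31 tested genes passed the threshold in edgeR, and 18 had higher means in R193H hearts, with a median log2 fold change of 0.12. Among them, Pcna, the sliding clamp of DNA polymerase, had means of 26.6 CPM in the wild type and 29.3 CPM in the mutant. It was the only one of the 31 whose groups did not overlap. With R193H higher, as here, the groups did not overlap for 6.02% of all genes tested. The mitosis list (20 genes) varied more, from 48.5 to 74.7 CPM in the wild type and from 32.2 to 87.4 CPM in the R193H hearts. Mki67, a marker of cycling cells, had 12.2, 3.94 and 14.6 CPM in the wild type and 12.3, 19.2 and 4.52 CPM in the R193H hearts. In R193H replicate 3 the mitosis sum was the lowest of all hearts, while the histone sum was 139 CPM, as in R193H replicate 1. Wild type replicates 2 and 3, where Hist1h2al was high, had the lowest mitosis sum and the highest of the wild type hearts.

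**Figure D4:**
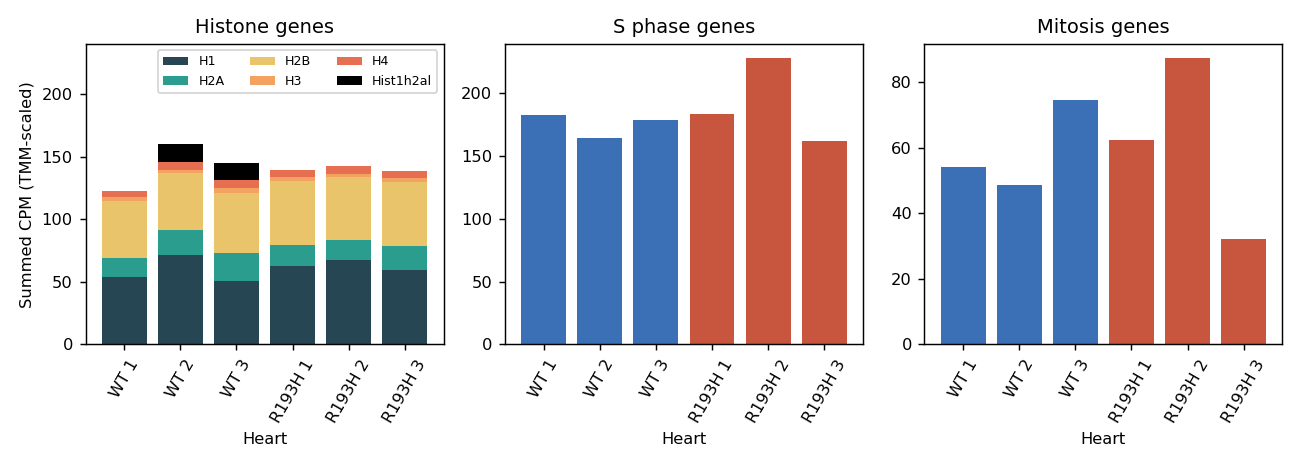
Summed CPM (y axis) per heart (x axis) of the histone genes by class with Hist1h2al in black (left), of the S phase list (middle) and of the mitosis list (right), with wild type in blue and R193H in red in the last 2 panels. The histone sums without Hist1h2al lie between 123 and 145 CPM, while the mitosis sums range from 32.2 to 87.4 CPM.

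Among genes that make and process histone messenger RNA, none passed the threshold. Slbp, whose protein binds the stem-loop, measured 14.0, 11.6 and 13.2 CPM in the wild type and 12.5, 12.7 and 11.5 CPM in the R193H hearts (log2 fold change -0.078, SE 0.12). Npat, the activator of histone gene transcription, stood at -0.0091 (SE 0.14). Of 24 tested genes of the processing list, 0 passed in edgeR, 17 had lower means in R193H hearts, and the median log2 fold change was -0.025. The first by p were Sympk (-0.16, SE 0.083), Wdr33 (-0.25, SE 0.16) and Lsm11 (-0.26, SE 0.17), which act in 3′ end formation. Replication-independent histone genes, which supply histones outside S phase, had 0 of 11 tested members past the threshold and a median of 0.076. In this list H3f3b, a source of H3.3, stood at 0.25 (SE 0.11) and H1f0, the linker histone of resting cells, at 0.17 (SE 0.096). Histone chaperones had 0 of 19 past the threshold and a median of 0.011, with Asf1a at -0.27 (SE 0.12).

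Library totals ranged from 14736067 to 21852210 counts, and R193H replicate 2 lay farthest out on the first principal component (30.6% of the variance). All 12 cardiomyocyte markers were detected, with sums of 65159 to 67338 CPM in the wild type and 57303 to 64058 CPM in the R193H hearts. Of the markers of other cells, the macrophage sums were 391 to 454 CPM in the wild type and 472 to 671 CPM in the R193H hearts, and the lymphocyte sums 7.64 to 23.7 and 12.2 to 19.1 CPM. Neutrophil sums were 0.788 to 19.2 and 1.65 to 3.07 CPM, and erythroid sums 319 to 3202 and 558 to 688 CPM, both lowest in wild type replicate 2 among the wild type hearts. Endothelial sums were 1372 to 1709 and 1504 to 1656 CPM, and fibroblast sums 3433 to 4333 and 3341 to 5125 CPM. Of 12 germ cell markers, 6 were at 0 in every heart, among them Tnp1, Prm2 and Stra8, and the rest summed to 0.540 to 1.09 CPM per heart. In whole tissue, fewer cells of a type and less RNA per cell cannot be told apart, and the part of these lists in the histone values was not tested.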

How the data were processed

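The authors deposited 1 table of raw read counts per gene symbol for the 6 hearts, 1 column per heart, matched here by sample title. HISAT2 2.0.4 and GRCm38 are the aligner and build in the submitters' processing notes. The counting program, annotation, strand setting and treatment of reads with several matches were not given in the sources used here. Groups follow the genotype label, and replicate numbers follow the order of listing.

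edgeR 4.0.16 (R 4.3.3) was run on the counts: filterByExpr kept 14370 genes, normalization was TMM, and genotypes were compared by the robust quasi-likelihood test without covariates, adjusted by Benjamini-Hochberg over all genes tested (threshold 0.05). Alternatives were DESeq2 1.42.0, other scalings and filters, and leaving out each heart. The scripts were tested on simulated data. Log2 fold changes are R193H over wild type. Intervals cover counting error only, and ratios to a heart at 0 take the higher count as exact. Members were matched to GENCODE M21 (69) and RefSeq GRCm38.p6 (68). The rule for names took Hist1h2al, the 10 members with the highest mean CPM, on-off members, the 4 highest and 4 lowest log2 fold changes, the 5 genes most like Hist1h2al, Slbp, Npat, up to 3 genes per list by p, and the first 4 genes of the S phase and mitosis lists. Hist2h2bb, Hist1h2bb, Hist1h3f, members at 0 and sequence relatives were named after their values were seen. Members and lists were chosen with earlier results of these data known.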

Additional observations from a re-analysis of the deposited data

How the results depend on the processing

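The number of genes past the threshold over the whole table was 1 in edgeR, 38 with no filter on low counts, 36 with DESeq2, and 3 to 21 with single hearts left out. The number of members past it was 0 in every setting that kept all hearts and 0 to 1 with single hearts left out, the 1 being Hist1h2al without wild type replicate 1, which is no evidence on a gene the set was selected on. The median log2 fold change of the 15 tested members was 0.21 under library totals, a scaling that moved the median of all genes to 0.13, and 0.0092 to 0.10 with single hearts left out, the lowest without wild type replicate 1. Members with an on-off pattern numbered 11 with at least 5 counts in the high heart, 1 with at least 20 and 4 with at most 1 count in the low heart, and 2 without any single heart. The log2 ratio of the summed CPM stayed within the spread between hearts, at 0.10 under library totals, -0.12 to 0.065 with single hearts left out, and 0.072 without Hist1h2al, an alternative chosen after seeing the data. Of 149 refits of 14 named members, 8 changed sign: Hist3h2a was at 0.11 under library totals and ranged from -0.12 to 0.057 with single hearts left out, Hist1h4h from -0.012 to 0.16, Hist1h1e from -0.32 to 0.026 and Hist1h2be from -0.12 to 0.11. The cause was not tested. No paired analysis was possible because the replicate numbers only name hearts. Counts are few or none for the 12 members at 0 and the 37 with 1 to 9 counts in their highest heart; the parts of depth and of reads with several matches in this were not tested. Hist2h2aa1 stood at -1.01 without wild type replicate 3 and at -2.19 without wild type replicate 1.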
